A study of Mus musculus with 18 samples.

Results

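Intervals of open chromatin that lie at the ends of 2 or more neighbouring genes were examined in mouse cortical neurons. They were chosen by position alone from the deposited consensus list of ATAC-seq intervals. An interval on chromosomes 1 to 19 was taken if it overlapped the outermost end positions of 2 or more different protein-coding genes (RefSeq, GRCm38.p6), or if the nearest 2 ends of different genes both lay within 500 bp of its midpoint. Of 208005 autosomal intervals 1517 met this rule (0.729%), out of 211682 intervals in the whole list. They are called shared intervals here. The 12980 autosomal intervals that met the same position criteria for exactly 1 gene are called 1-gene intervals and served as the main comparison.

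ATAC-seq marks open DNA through insertion of sequencing adapters by the Tn5 transposase. The cells were primary cortical neurons of CD1 mouse embryos (E14.5-15), kept with 2 µM cytosine arabinoside, given lentiviral short hairpin RNAs on day 6 and harvested on day 11. The 18 libraries formed 4 groups: the Opa1 hairpin with the ATF4 hairpin (5 libraries), the control hairpin with the ATF4 hairpin (3 libraries), the Opa1 hairpin with a scrambled hairpin (5 libraries) and the control hairpin with a scrambled hairpin (5 libraries). Opa1 drives the fusion of inner mitochondrial membranes and Atf4 is a transcription factor of the integrated stress response, so the study asked about accessibility that depends on Atf4 under mitochondrial stress. The file analysed is 1 list for all groups with no value per library, so no knockdown could be compared with its control, no value below has a replicate error, and the sequencing depth is unknown. Of the defining markers on chromosomes 1 to 19, an interval lay at an end of 5 of 5 neuronal genes (Rbfox3, Map2, Tubb3, Snap25 and Stmn2), 1 of 4 astrocyte genes (Slc1a3), 3 of 4 oligodendrocyte lineage genes (Olig1, Olig2 and Mbp) and 1 of 4 microglia genes (Tmem119). Over all autosomal protein-coding genes the share was 63.6% (13072 of 20558). With 4 or 5 genes for each cell type, these counts do not measure which cells were present.

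Neighbouring genes in mammals often lie close together, and many are transcribed away from each other from starts that lie back to back. Such a bidirectional promoter is typically an open stretch rich in CpG dinucleotides that lacks a TATA box and serves housekeeping genes, for example for DNA repair, translation and mitochondrial function. Genes that follow each other on 1 strand, or that run towards each other and end side by side, place a start beside a finish or a finish beside a finish. Here, start and finish mean the outermost ends of the gene in the table, and the strand needed to tell them apart was known for 16457 of 20558 autosomal protein-coding genes. Alternative starts inside a gene were not considered.

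The promoter sequences below show what lies under intervals that hold a start of each of 2 genes transcribed in opposite directions. Each is the RefSeq window of GRCm38.p6 from 250 bases before to 50 bases after the start of the named gene, so that this start is base 251, read 5′ to 3′ on the strand of that gene. Capitals mark, on either strand, matches to the letters TGACGTCA (a cAMP response element, CRE), TGATGNAAN (an element bound by Atf4 with C/EBP proteins, CARE), ACTTCCGG (ETS factors), CCAATNNG (CCAAT box, bound by NF-Y) and CACGTG (E-box), and to a fixed run of 10 letters for YY1, which is the capital run at base 31 of the Ubn1 window on either strand. A match is a run of letters and not a shown binding site. The first 3 come from gene pairs that textbooks list as sharing a promoter. They are Hspd1, the mitochondrial chaperonin Hsp60, paired with Hspe1 (Hsp10), at chr1:55088194-55088493 (minus strand), Mrps12, a protein of the mitochondrial ribosome paired with the mitochondrial seryl-tRNA synthetase Sars2, at chr7:28741772-28742071 (minus strand), and Tap1, a peptide transporter of antigen presentation paired with the immunoproteasome subunit Psmb9, at chr17:34187306-34187605 (plus strand).
Hspd1: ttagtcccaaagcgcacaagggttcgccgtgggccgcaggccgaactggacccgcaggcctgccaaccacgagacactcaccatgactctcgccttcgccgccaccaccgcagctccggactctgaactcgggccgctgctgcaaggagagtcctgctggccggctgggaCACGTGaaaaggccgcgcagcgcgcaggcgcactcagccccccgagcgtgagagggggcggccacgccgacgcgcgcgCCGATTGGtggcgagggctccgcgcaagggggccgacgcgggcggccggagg
Mrps12: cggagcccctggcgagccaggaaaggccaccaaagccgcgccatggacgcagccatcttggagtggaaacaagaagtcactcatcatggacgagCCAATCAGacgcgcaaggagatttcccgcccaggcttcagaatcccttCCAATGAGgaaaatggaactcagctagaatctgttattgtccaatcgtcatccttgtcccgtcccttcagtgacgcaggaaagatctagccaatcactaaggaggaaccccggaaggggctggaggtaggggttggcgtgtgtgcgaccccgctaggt
Tap1: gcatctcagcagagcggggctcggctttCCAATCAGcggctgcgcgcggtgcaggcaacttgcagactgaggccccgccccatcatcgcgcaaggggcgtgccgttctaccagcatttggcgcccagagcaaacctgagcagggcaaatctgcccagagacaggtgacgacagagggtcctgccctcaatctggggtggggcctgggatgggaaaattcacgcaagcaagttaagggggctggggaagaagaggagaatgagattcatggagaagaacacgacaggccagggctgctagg

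The start of Sars2 lies at base 115 of the Mrps12 window, between 2 CCAAT boxes at bases 95 and 143, and the start of Psmb9 lies at base 25 of the Tap1 window, ahead of a CCAAT box at base 29. In the Hspd1 window an E-box lies at base 171 and a CCAAT box on the other strand at base 249, while the start of Hspe1 falls outside the window. Next are the windows of 2 stress-response genes with a shared interval. Ddit3, the transcription factor CHOP, is paired with Mbd6 at chr10:127290543-127290842 (plus strand), and Ppp1r15a, the GADD34 subunit that directs a phosphatase to eIF2α, is paired with Plekha4 at chr7:45526219-45526518 (minus strand).
Ddit3: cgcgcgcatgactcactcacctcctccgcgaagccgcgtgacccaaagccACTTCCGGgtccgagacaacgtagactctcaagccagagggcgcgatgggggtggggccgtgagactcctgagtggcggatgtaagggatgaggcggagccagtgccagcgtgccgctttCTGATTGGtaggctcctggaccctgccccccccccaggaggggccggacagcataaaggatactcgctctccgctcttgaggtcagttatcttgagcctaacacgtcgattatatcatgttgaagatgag
Ppp1r15a: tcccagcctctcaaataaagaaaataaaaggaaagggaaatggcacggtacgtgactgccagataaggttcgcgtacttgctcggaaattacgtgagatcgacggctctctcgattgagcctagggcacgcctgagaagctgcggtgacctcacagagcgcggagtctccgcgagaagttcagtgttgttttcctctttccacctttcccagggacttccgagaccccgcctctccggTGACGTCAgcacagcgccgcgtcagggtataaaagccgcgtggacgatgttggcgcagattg

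The Ddit3 window held the ETS letters at base 51 and a CCAAT box at base 171, and no CARE. The shared interval of Ddit3 (1621 bp) reaches beyond this window, and the bases outside the window were not searched. The Ppp1r15a window held a CRE at base 239, with the start of Plekha4 at base 189. The last 3 are the widest intervals at starts on opposite strands whose windows hold a CRE or CARE. They belong to Tmem251, paired with the apoptosis modulator Moap1, at chr12:102743469-102743768 (plus strand), Hcn4, a pacemaker channel paired with the meiotic recombination gene Rec114, at chr9:58822699-58822998 (plus strand), and Ubn1, a histone chaperone subunit paired with Glyr1, at chr16:5049807-5050106 (plus strand).
Tmem251: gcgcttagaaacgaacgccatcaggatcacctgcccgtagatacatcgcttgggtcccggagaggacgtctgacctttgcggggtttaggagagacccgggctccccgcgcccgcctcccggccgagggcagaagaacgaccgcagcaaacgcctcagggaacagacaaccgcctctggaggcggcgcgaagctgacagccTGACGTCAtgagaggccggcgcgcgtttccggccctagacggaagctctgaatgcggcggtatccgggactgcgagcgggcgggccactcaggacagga
Hcn4: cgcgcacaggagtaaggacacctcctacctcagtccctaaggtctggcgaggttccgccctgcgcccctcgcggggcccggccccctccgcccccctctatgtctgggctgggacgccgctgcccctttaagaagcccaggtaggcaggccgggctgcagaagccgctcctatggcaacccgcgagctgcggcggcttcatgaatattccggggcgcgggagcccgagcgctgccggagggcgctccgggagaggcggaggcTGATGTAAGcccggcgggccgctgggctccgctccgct
Ubn1: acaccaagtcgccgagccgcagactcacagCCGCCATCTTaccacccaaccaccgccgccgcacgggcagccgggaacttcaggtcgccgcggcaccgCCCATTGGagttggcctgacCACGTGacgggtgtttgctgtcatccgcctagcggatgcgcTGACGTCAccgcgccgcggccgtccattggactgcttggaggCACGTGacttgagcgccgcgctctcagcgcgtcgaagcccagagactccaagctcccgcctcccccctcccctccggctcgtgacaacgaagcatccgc

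The CRE of the Tmem251 window starts at base 202, close to the start of Moap1 at base 193. The CARE of the Hcn4 window starts at base 263, after the Hcn4 start. The Ubn1 window carries 4 kinds of motif: YY1 at base 31, CCAAT at base 99, E-boxes at bases 119 and 202, and a CRE at base 160, with the start of Glyr1 at base 132. How often each motif occurs over all such promoters is given with the promoter results further on.

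Most shared intervals belonged to exactly 2 genes. Of the 1517 intervals, 1498 held the ends of 2 genes, 18 of 3 genes and 1 of 24 genes. The ends involved lay close together, with a median distance of 130 bp (quartiles 51 and 282 bp, maximum 1449 bp), and in 33 intervals the closest ends of 2 genes were the same base. Both arms of the rule took 1099 intervals, overlap alone took 131 and the midpoint distance alone took 287. At the 500 bp limit, 121 intervals had the farther of their nearest 2 ends 450 to 500 bp from the midpoint, with a median width of 796 bp. Another 119 had it at 500 to 550 bp, of which 40 were still taken through overlap and 79, with a median width of 382 bp, were not. A gene with a provisional name, such as a predicted Gm gene, was present in 151 shared intervals (9.95%). Over all protein-coding genes 2794 of 20558 (13.6%) had a shared interval at an end, and 13072 (63.6%) had some interval at an end.

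The interval of 24 genes spans chr18:37841361-37843055 (1695 bp) and covers the common last end of the protocadherin gamma cluster. Its genes encode neuronal cell adhesion molecules, and each variable first exon is spliced to the same constant exons, so that Pcdhga1, Pcdhgb1, Pcdhgc3 and the others end at 1 place. The widest intervals of 3 genes joined the predicted gene 4930404N11Rik with Mfsd12 and Fzr1, an activator of the anaphase-promoting complex (2851 bp), then Frs3 with Tomm6, a subunit of the outer mitochondrial import pore, and Prickle4 (2060 bp), and Mtf1, a metal-responsive transcription factor, with 1110065P20Rik and Yrdc (1844 bp).

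Most shared intervals held starts on opposite strands, the arrangement of a bidirectional promoter. Of the 1099 intervals with 1 known orientation, 796 (72.4%) held a start of each of 2 genes on opposite strands, 158 (14.4%) held a finish and a start on the same strand, and 106 (9.65%) held finishes of genes on opposite strands. Starts on the same strand were held by 25 intervals, a finish and a start on opposite strands by 12, and finishes on the same strand by 2. In 386 of the 1517 intervals a strand was not known, and 32 held ends in several orientations. Among the 25 with starts on the same strand, Gdf1 and Cers1, a growth factor and a ceramide synthase, began at the same base under an interval of 2078 bp. Cpne1 and Rbm12 also began at 1 base (1512 bp), and the starts of Slc5a3, a myo-inositol transporter, and Mrps6 lay 14 bp apart (1456 bp).

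How often close neighbours had a shared interval differed with which ends met. Over all pairs of ends of different genes that were 1000 bp apart or less, 1725 of 3436 (50.2%) had a shared interval. The share was 88.5% (772 of 872) where starts on opposite strands met, 32.3% (160 of 496) where a finish met a start on the same strand, and 14.4% (102 of 706) where finishes on opposite strands met. Starts of 2 genes on the same strand shared an interval in 30 of 37 pairs. The overall share depends on the protocadherin gamma interval, whose ends make 276 of the pairs: without them it was 45.9% (1449 of 3160). Pairs in which 1 gene lay within the other or overlapped it by over 1000 bp shared an interval in 68.1% of cases (343 of 504), and the remaining pairs in 47.1%. This order also rests on the protocadherin gamma interval: without its pairs the first value was 29.4% (67 of 228) and the other stayed at 47.1%. Pairs of other clustered protocadherins were not taken out, and their part in these values was not tested.

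Shared intervals were rarer at larger distances. Pairs of starts on opposite strands shared an interval in 95.9% of cases at up to 100 bp (350 of 365), 93.6% at 100 to 250 bp, 91.1% at 250 to 500 bp, 64.2% at 500 to 750 bp and 37.3% at 750 to 1000 bp (19 of 51). Pairs of genes that overlap by over 1000 bp were left out here. None of the remaining 61 pairs at 1000 to 2000 bp shared one, but 20 of them had a separate interval at each start. The rule itself limits this range, since the midpoint criterion cannot reach ends over 1000 bp apart and overlap needs a wide interval. A finish and a start on the same strand shared an interval in 47.4% of pairs at up to 100 bp, 64.3% at 100 to 250 bp and 6.25% at 750 to 1000 bp. Finishes on opposite strands shared one in 21.8% of pairs at up to 100 bp and 5.56% at 750 to 1000 bp.

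**Figure D1:**
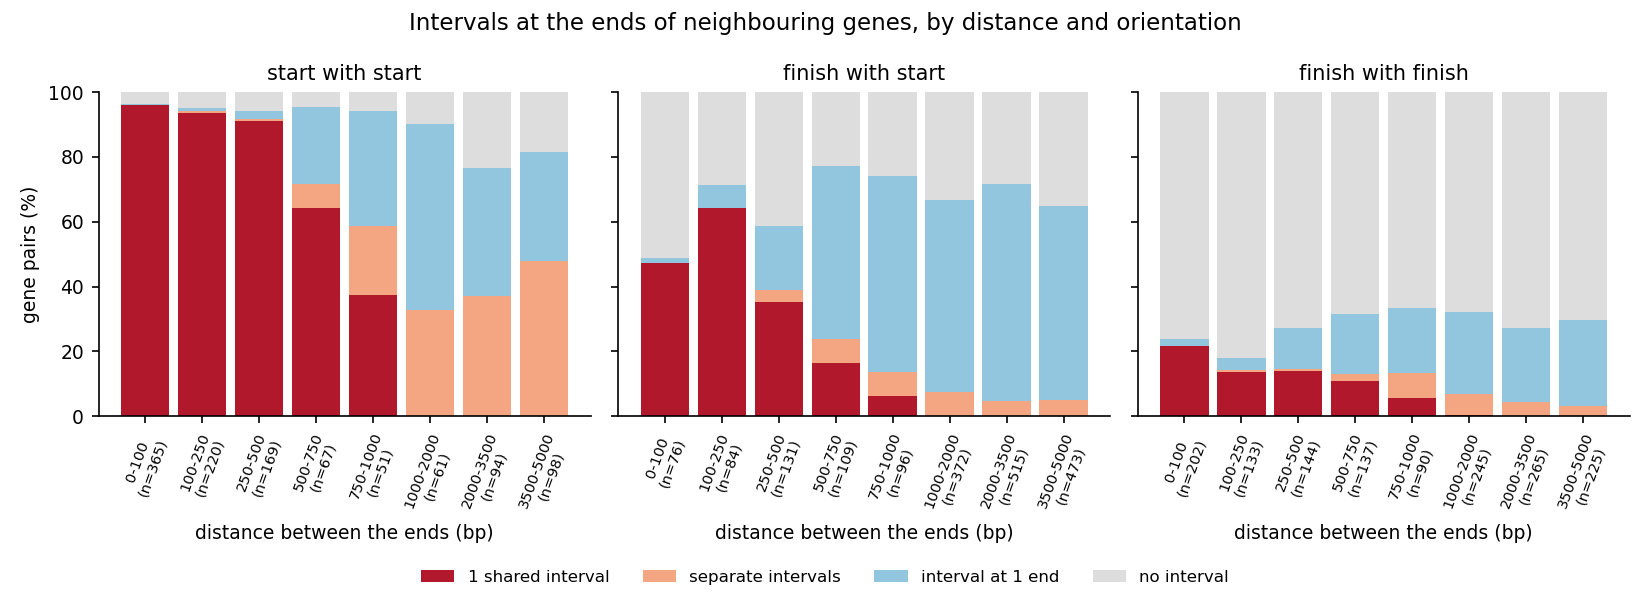
Bars show the percentage of gene pairs (y axis) in each bin of the distance between their ends in bp (x axis), for pairs whose starts lie on opposite strands, for a finish beside a start on the same strand, and for finishes on opposite strands, with the number of pairs under each bar. Pairs of genes that overlap by over 1000 bp, or of which 1 lies within the other, are left out. Colours give pairs with 1 shared interval, with a separate interval at each end, with an interval at 1 end, and with none; up to 100 bp the shared percentage is 95.9, 47.4 and 21.8 in the 3 panels.

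The same close pairs and intervals, viewed without the rule, gave the same order. Both views rest on the same positions, so this view is not independent of the shares above. Pairs were taken by gene position alone, and the presence of any interval was counted at each position around the midpoint between their ends. At that midpoint 92.1% of the 872 pairs of starts on opposite strands were under an interval, against 51.6% of the 11456 isolated starts that had no other end within 5000 bp. Around pairs of starts the percentage was 70.5% at 500 bp on the side of lower coordinates and 71.2% at 500 bp on the other side, and 12.5% and 14.7% at 1000 bp. For a finish beside a start, the midpoint was covered in 48.6% of 496 pairs, with the highest value, 61.5%, 400 bp towards the gene that starts there. For finishes on opposite strands the curve had no rise at the midpoint, with 11.6% there for 706 pairs, against 3.70% at the 10543 isolated finishes. A like gap stood 3000 bp towards lower coordinates from the pairs, 15.0%, against 5.16% at 3000 bp before the isolated finishes, so that it was not particular to the midpoint.

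**Figure D2:**
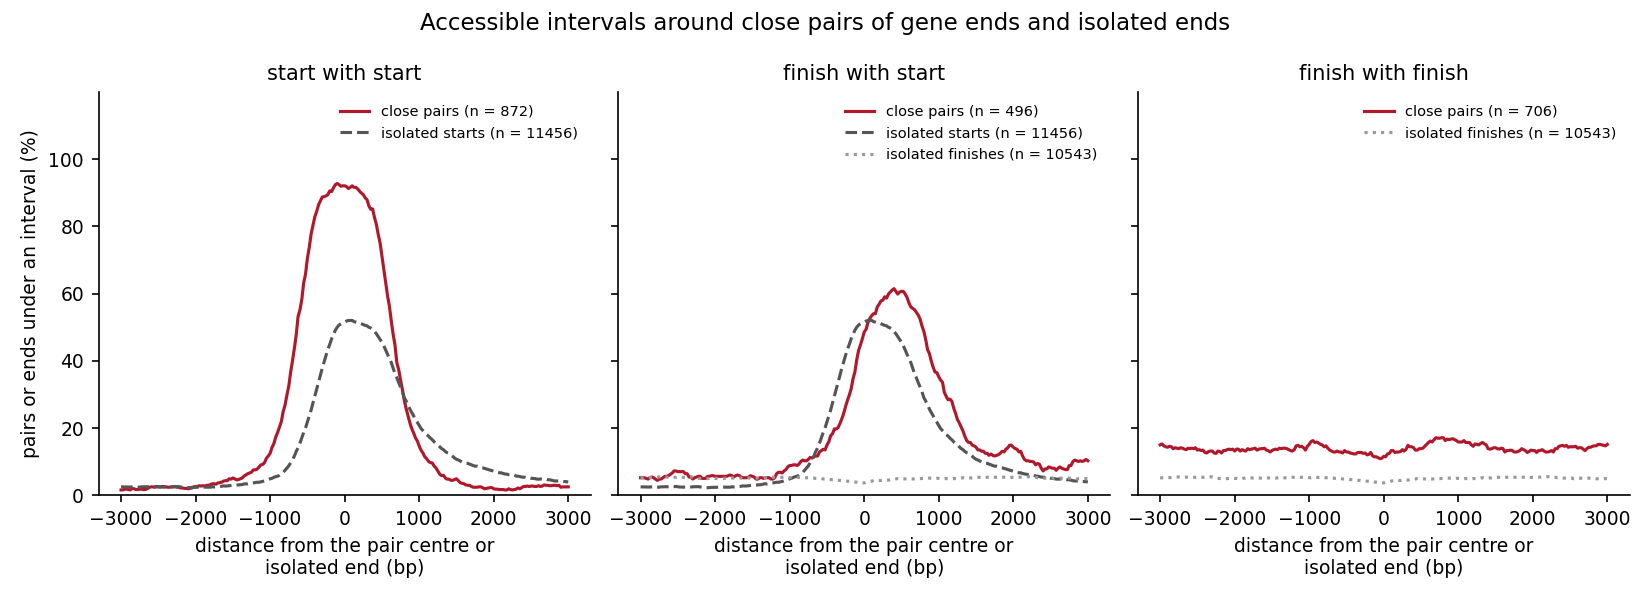
Lines show the percentage of close gene pairs (red), of isolated starts (dashed) and of isolated finishes (dotted) that lie under any interval (y axis) at each distance in bp from the pair's centre or the isolated end (x axis), oriented along transcription for isolated ends and for finish with start pairs and by rising coordinate for the others. Start with start pairs reach 92.1% at the centre against 51.6% for isolated starts, while finish with finish pairs are at 11.6% at the centre and 17.1% at their highest point.

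Counted by single ends, 92.9% of the starts in pairs of starts had an interval, against 54.2% of isolated starts (6204 of 11456). Leaving out olfactory and vomeronasal receptor genes raised the value for isolated starts to 60.4%. In pairs of a finish and a start, 64.1% of the starts and 38.5% of the finishes had an interval, and the 336 such pairs without a shared interval had one at the start alone in 138 cases, at the finish alone in 11, at each separately in 20 and at neither in 167. In the 158 shared intervals with a finish and a start, the midpoint was nearer the start in 120 (75.9%), at a median distance of 176 bp from the start and 342 bp from the finish. Finishes on opposite strands had an interval in 21.0% of cases, against 8.46% of isolated finishes.

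Close starts without any interval were few and included genes of other tissues. Of the 872 pairs of starts on opposite strands within 1000 bp, 41 (4.70%) had no interval at either start. The pairs named here were chosen after their values were seen. They included the pair of sperm genes Spata48 and Zpbp (starts 479 bp apart). Others were Spata22 with Aspa (316 bp), the interferon-induced genes Ifit1 and Ifit1bl2 (62 bp), the blood clotting inhibitor Tfpi2 with the cone transducin subunit Gngt1 (104 bp), and 2 pairs of major urinary protein genes. Genes active in many tissues were among them too, such as Stat5a with Stat5b, signal transducers of cytokine receptors (347 bp apart, nearest interval 743 bp away), and Ctnnd1, the cell adhesion protein p120 catenin, with Btbd18 (95 bp apart, nearest interval 7776 bp away). The ribosomal protein gene Rps2 with Rnf151 (64 bp apart, nearest interval 1445 bp away) was also among them. So was the neuronal zinc transporter gene Slc30a3 with Dnajc5g (49 bp apart, nearest interval 11614 bp away). For Rad51c, a DNA repair gene, and Tex14 the nearest interval lay 48 bp from the starts.

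Shared intervals were wider than 1-gene intervals. The median width was 1141 bp in shared intervals (quartiles 786 and 1385 bp), 991 bp in 1-gene intervals (501 and 1305 bp) and 426 bp in all autosomal intervals. Because overlap with 2 ends favours wide intervals, the width was also taken over the midpoint criterion, which asks for no overlap: 1386 shared intervals met it with a median of 1098 bp, against 949 bp for the 12175 1-gene intervals with a midpoint within 500 bp of the end. For starts alone the values were 1196 bp in shared intervals with starts on opposite strands and 1049 bp in 1-gene intervals at a start. A width of 1000 bp or more was reached by 62.6% of shared intervals (950), 49.4% of 1-gene intervals (6410) and 8.16% of all autosomal intervals. A width of 2000 bp or more did not follow this order, with 2.31% of shared intervals (35), 2.90% of 1-gene intervals (377) and 0.282% of all.

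Width differed with the kind of end. The median was 1212.5 bp at starts on opposite strands, 1057 bp for a finish with a start on the same strand and 430 bp for finishes on opposite strands. In 1-gene intervals it was 1082 bp at a start and 406 bp at a finish. Only 12 of the 106 intervals at finishes on opposite strands (11.3%) were 1000 bp wide or more, against 579 of 796 (72.7%) at starts on opposite strands. The deposited score stood at its ceiling of 1000 for all but 3 shared intervals (0.198%), against 0.578% below the ceiling in 1-gene intervals and 1.53% in all autosomal intervals. All 3 lay at finishes on opposite strands: between 1700001K19Rik and Dync1h1, a dynein motor heavy chain (score 306), between Bysl and Ccnd3, a cyclin of the early cell cycle (285), and between Dmap1 and Eri3 (275).

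**Figure D3:**
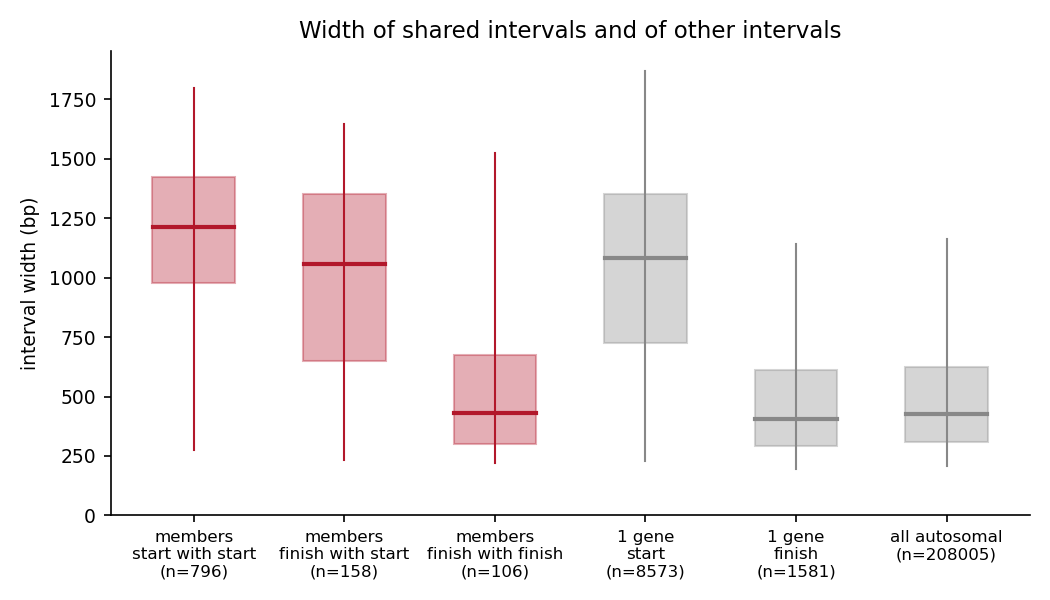
Interval width in bp (y axis) for shared intervals by orientation (red) and for 1-gene and all autosomal intervals (grey), with the number of intervals under each; the line in a box is the median, the box spans the quartiles and the vertical line the 5th to 95th percentiles over intervals. Medians are 1212.5, 1057 and 430 bp in shared intervals with start with start, finish with start and finish with finish, 1082 and 406 bp in 1-gene intervals at a start and a finish, and 426 bp in all.

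The widest shared interval, against this tendency, lay where 2 genes ended. It measured 3467 bp at chr10:80128922-80132388 and covered the finishes of Cbarp, a regulator of voltage-gated calcium channels, and Stk11, the kinase LKB1 that activates AMPK, 245 bp apart. Also among the 10 widest was Dnajb2 with Ptprn (2493 bp), a co-chaperone and a protein of dense-core vesicles, whose genes also met at their finishes. Wide intervals at starts included Tshz3, a zinc finger transcription factor, with Gm36722 (2659 bp), the chloride channel Clcn2 with the RNA polymerase subunit Polr2h (2495 bp), Sgsm2 with the ribosome assembly factor Tsr1 (2461 bp), Pawr with Gm40755 (2416 bp) and Zbtb14 with Gm49894 (2365 bp). Rpl7, a ribosomal protein, and Rdh10, an enzyme of retinoic acid synthesis, had ends 1449 bp apart under 1 interval of 2378 bp, the largest distance of all shared intervals, and Gm10840 with Limd2 had one of 2369 bp. Among a finish with a start on the same strand, the widest were Setd1a, a histone H3 methyltransferase, with Hsd3b7 (1934 bp) and Zfr2 with the kinase Matk (1923 bp). Of a finish with a start on opposite strands, the widest was Gm52241 with Rtn4r (2277 bp).

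The 5 narrowest shared intervals measured 106 to 136 bp, and none of them covered the ends that it was assigned to. They lay near Coq6, an enzyme of ubiquinone synthesis, and Fam161b (106 bp), Ak6 and Taf9 (115 bp), Mitd1 and Mrpl30 (120 bp), Nop14 and Grk4 (133 bp), and 1700029J07Rik and Ufsp2 (136 bp). All 5 are at starts and were taken through the midpoint criterion alone. A narrow interval can also be a neighbour of a wider one at the same pair, since 88 of the 1737 gene pairs were held by more than 1 shared interval, 85 by 2 and 3 by 3.

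At starts on opposite strands, the interval usually sat over both. Of the 796, 726 (91.2%) covered both starts and 44 (5.53%) covered neither. The midpoint lay at a median of 128.5 bp from the centre between the starts, and within 250 bp of it in 624 (78.4%). In 526 the starts lay apart with the genes not overlapping, and in 270 (33.9%) the genes overlapped at their starts. The median gap from the minus-strand start to the plus-strand start was 41 bp (quartiles −73.5 and 130 bp, negative for overlap). By gap, the median width was 1303 bp where the genes overlapped by over 250 bp, 1177 bp with a gap of 1 to 100 bp, 1215 bp with a gap of 250 to 500 bp and 1319 bp in the 19 with a gap over 500 bp.

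Of 14 gene pairs that textbooks give as sharing a promoter, 12 had a shared interval. Over all pairs of starts on opposite strands, counted as above, the share was 95.9% at up to 100 bp. It was 93.6% at 100 to 250 bp, 91.1% at 250 to 500 bp and 64.2% at 500 to 750 bp. The count of 12 thus does not set the textbook pairs apart from other close starts. Among the 12 were Hspd1 with Hspe1 (1605 bp), whose promoter is shown above, the basement membrane collagens Col4a1 with Col4a2 (2071 bp), and Paics with Ppat, which make purines (1345 bp). In DNA replication and repair they included Atm with Npat (1216 bp), Fen1 with Tmem258 (1307 bp), Mcm4 with Prkdc (1289 bp) and Brca1 with Nbr1 (683 bp). Surf1 with Surf2 (1309 bp), Tap1 with Psmb9 (1401 bp), Mrps12 with Sars2 (932 bp) and Pdcd10 with the neuronal serpin Serpini1 (1032 bp) were also among them. Those without a shared interval were Psmb1 with Tbp, whose ends lie 1612 bp apart and so beyond the usual reach of the rule, and Col4a3 with Col4a4, collagens of specialised basement membranes such as that of the kidney glomerulus, whose ends lie 113 bp apart.

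Genes were then followed by their function, and each list is read against the 13.6% of all protein-coding genes with a shared interval. Several lists for mitochondria, translation and genome upkeep had higher shares. A shared interval was present at 34 of 78 genes of the mitochondrial ribosome (43.6%), 29 of 71 genes of DNA damage signalling and repair (40.8%), 14 of 36 aminoacyl-tRNA synthetases (38.9%), 30 of 85 nuclear genes of respiratory complexes I to V (35.3%) and 7 of 25 genes of mitochondrial chaperones, proteases and import (28.0%). The shares were 23.8% for cytosolic ribosomal proteins (19 of 80) and 22.9% for proteasome subunits and assembly factors (11 of 48). The shares for mitochondrial chaperones, proteases and import and for the proteasome rest on few genes, 7 and 11. Genes of these lists more often had any interval at an end, from 89.6% (proteasome) to 94.9% (mitochondrial ribosome), against 63.6% of all genes. How far this goes with their higher shares was not tested. These lists also had more close neighbours: an end of another gene within 1000 bp was present for 56.4% of mitochondrial ribosome genes and 59.2% of repair genes, against 25.6% of all genes. Among genes with such a neighbour, a shared interval was present for 34 of 44 mitochondrial ribosome genes, 14 of 16 tRNA synthetase genes and 30 of 47 respiratory genes, against 2777 of 5260 over all genes (52.8%). It was 29 of 42 for repair, 17 of 28 for the cytosolic ribosome (60.7%), 7 of 12 for mitochondrial chaperones and import (58.3%) and 11 of 19 for the proteasome (57.9%), the last 3 closer to all genes.

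**Figure D4:**
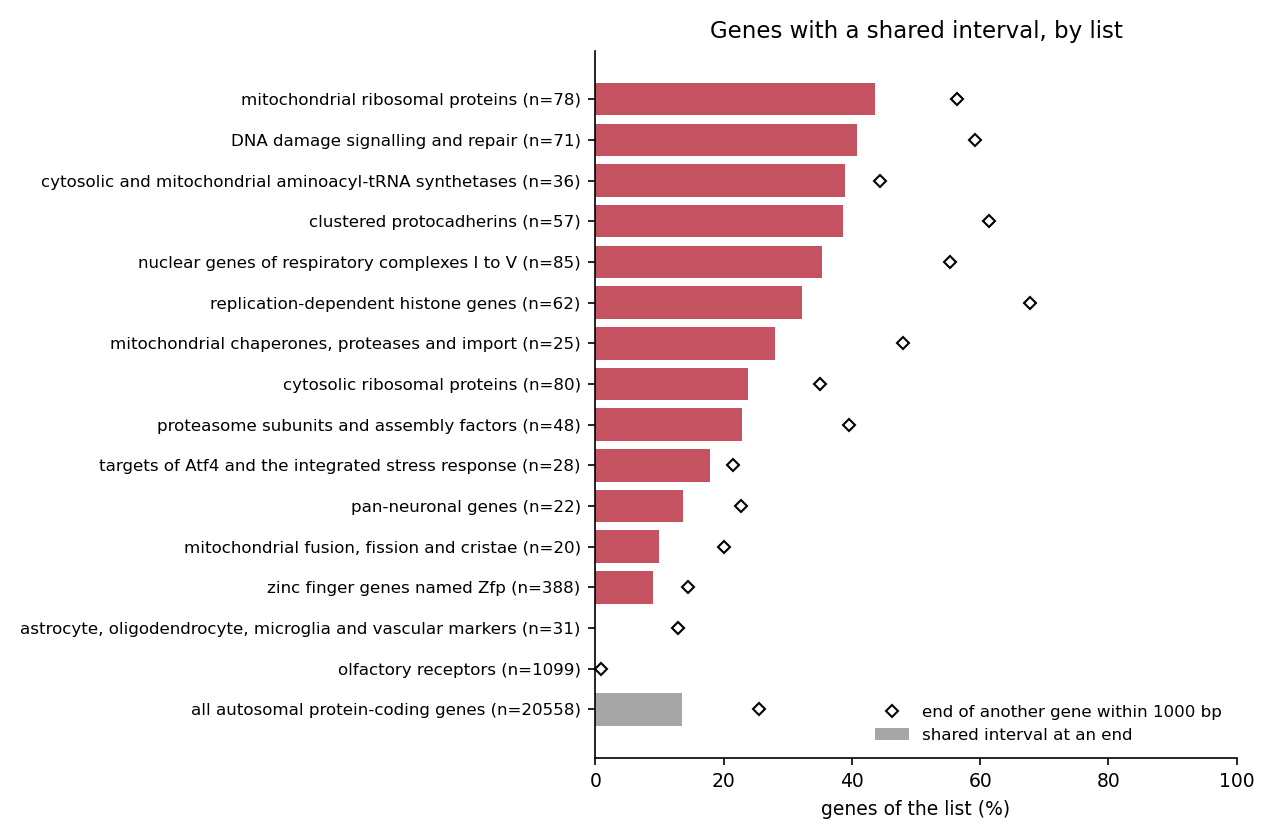
Bars give the percentage of genes (x axis) of each list (y axis, number of genes in brackets) with a shared interval at an end, and diamonds the percentage with an end of another gene within 1000 bp; the grey bar is all autosomal protein-coding genes. Mitochondrial ribosomal proteins are highest at 43.6%, all genes stand at 13.6%, and olfactory receptors and the markers of glia and vessels are at 0.

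Within the lists for the mitochondrial ribosome, respiratory complexes, and mitochondrial chaperones, proteases and import, 71 of 188 genes (37.8%) had a shared interval, and 5 intervals held 2 of these genes at once. One of the 5 joins Mrpl47 of the mitochondrial ribosome with Ndufb5 of complex I (1492 bp, starts 302 bp apart). The widest of the respiratory list lay at Ndufb1 of complex I with Cpsf2, an mRNA cleavage factor (1805 bp), and at Atp5j of the ATP synthase with Gabpa (1500 bp), which is itself an ETS factor known for regulating mitochondrial genes. Of the ribosome list, Mrpl40 lay with Hira, a histone chaperone (2194 bp), and Mrpl48 with the Golgi GTPase Rab6a (1625 bp). The protease Lonp1 of the mitochondrial matrix shared 1586 bp with Catsperd, a sperm ion channel subunit, and the protease Htra2 shared 1578 bp with Aup1. Starts on opposite strands accounted for 24 of the 34 mitochondrial ribosome genes and 19 of the 30 respiratory genes. Genes in intervals without a known strand stay in these denominators, such as Uqcrq with Gdf9. Over all shared intervals, counted by interval and not by gene, the share was 52.5% (796 of 1517). It was 72.4% of the 1099 with a single known orientation. Whether these lists differ from all shared intervals was not tested. The list for mitochondrial fusion, fission and cristae, the group that Opa1 belongs to, had 2 of 20 genes, Prelid1 with Rab24 (1047 bp) and Micos13 with Rpl36 (988 bp). With this list added the joint share was 35.1% (73 of 208).

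Among tRNA synthetases the widest shared intervals were those of Yars with S100pbp (1631 bp), Fars2 with Lyrm4, a factor for iron-sulfur clusters (1578 bp), Kars with the telomere protein Terf2ip (1502 bp, starts 5 bp apart) and Vars2 with Gtf2h4, a subunit of TFIIH (1457 bp). For cytosolic ribosomal proteins they were, after Rpl7, those of Rpl4 with Zwilch (1543 bp), Rpl19 with the calcium channel subunit Cacnb1 (1470 bp) and Rpl7a with Med22 of the Mediator complex (1388 bp). For the proteasome they were Psma7 with Ss18l1, a subunit of the neuronal BAF complex (1780 bp), Psmc5 with Ftsj3 (1502 bp) and Psmg2 with Cep76 (1468 bp). For repair they included Ercc8 with Ndufaf2, an assembly factor of complex I (1443 bp), the translesion polymerase Polh with the nuclear exporter Xpo5 (1340 bp), and Fen1 with Tmem258.

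Neither gene targeted in the study had a shared interval. Atf4 had an interval at an end, and the nearest end of another protein-coding gene lay 1812 bp away. Opa1 also had an interval at an end, with its nearest neighbour 34417 bp away. Of 28 genes known as Atf4 targets or as part of the stress response around it, 25 had an interval at an end and 5 had a shared one (17.9%), close to the share of all genes and resting on 5 genes. These 5 were Ddit3 with Mbd6 (1621 bp, starts 76 bp apart), Ppp1r15a with Plekha4 (1336 bp, 62 bp), Atf5 with Nup62 and Il4i1b (1140 bp), Mthfd2, an enzyme of mitochondrial folate metabolism, with Mob1a (1092 bp, 23 bp), and Psph, the last enzyme of serine synthesis, with the chaperonin subunit Cct6a (1072 bp, 87 bp). Of the 6 genes of this list that had a close neighbour, 5 thus had a shared interval.

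Other families differed in where their ends met. Replication-dependent histone genes, which lie in dense clusters, had a shared interval at 20 of 62 (32.3%), and 67.7% had a close neighbour. With a midpoint distance of 1000 bp the share was 40 of 62 (64.5%). At the 500 bp used here, 10 intervals held 2 histone genes. The widest were at H3c13 with H2bc18 (1709 bp) and H2ac6 with H2bc4 (1389 bp). Of clustered protocadherins 22 of 57 had one (38.6%), through the single interval at the common end of the gamma cluster for all but 1 gene. Zinc finger genes named Zfp had a shared interval in 35 of 388 cases (9.02%), the widest at Zfp335 with Pcif1 (2223 bp, at the finishes), Zfp319 with Usb1 (1778 bp), Zfp276 with Vps9d1 (1748 bp) and Zfp664 with Ccdc92 (1736 bp).

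Neuronal genes had shared intervals at about the share of all genes, and markers of glia and vessels had none. Of 22 neuronal genes, 21 had an interval at an end and 3 had a shared one (13.6%, as over all genes), each through overlap, so that the midpoint criterion alone gave 0 of 22. A midpoint distance of 1000 bp gave 5 of 22 (22.7%), against 18.2% of all genes at that distance. Grin1, a subunit of NMDA receptors, met Lrrc26 at its finish (1836 bp), the neurofilament gene Nefh met Ap1b1 (1687 bp), and the neuronal tubulin Tubb3 had its start 809 bp from the finish of the melanocortin receptor Mc1r (1485 bp). None of the 3 was of the kind in which starts on opposite strands meet with both strands known. Of 31 markers of astrocytes, oligodendrocytes, microglia and vessels, 14 had an interval at an end and 0 had a shared one, with 4 that had a close neighbour. Olfactory receptor genes, known for their expression in the nose, had 0 of 1099 with a shared interval, 38 with any interval at an end, and 9 with a close neighbour.

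Promoters in shared intervals had more CpG dinucleotides than other promoters. Over 795 RefSeq windows of 300 bp whose start lay in a shared interval with starts on opposite strands, the median was 25 CpG (quartiles 18 and 31). It was 20 in 4483 windows in 1-gene intervals, 10 in all 9841 windows and 2 in 4285 windows in no interval. The median GC content was 62.7% in these shared intervals, 60.7% in 1-gene intervals, 54.3% in all windows and 45.0% in no interval. Windows of paired starts can overlap and then are not separate sequences. With only the windows of minus-strand genes, the median was 24 CpG over 409 windows. Not every start had a window: the 796 shared intervals with starts on opposite strands gave 795 windows for both strands together. The CpG and motif values cover only the starts with a window.

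**Figure D5:**
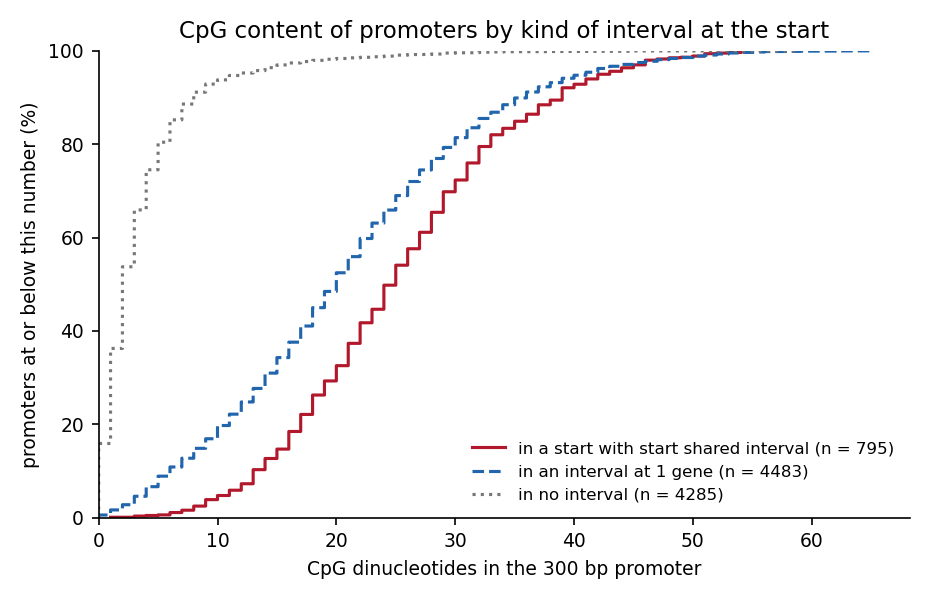
Curves give the percentage of promoters (y axis) with at most the number of CpG dinucleotides on the x axis in their 300 bp window, for starts in shared intervals with starts on opposite strands, starts in 1-gene intervals and starts in no interval. The medians are 25, 20 and 2 CpG.

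Motifs differed in the same windows. The ETS letters ACTTCCGG were present in 13.5% of windows in shared intervals with starts on opposite strands (107 of 795), 6.29% in 1-gene intervals, 4.60% of all windows and 0.653% of windows in no interval. With the minus-strand window alone the value was 12.2%. The YY1 letters were present in 4.28% in shared intervals, 1.74% in 1-gene intervals and 1.20% of all windows. TATAAA, the core of the TATA box, was present in 4.91% in shared intervals, 8.74% in 1-gene intervals, 17.4% of all windows and 29.3% in no interval. The letters CCAATNNG stood at 20.1% in shared intervals, 21.0% in 1-gene intervals and 16.8% of all, and CACGTG at 11.2%, 10.5% and 7.52%.

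The motifs linked to Atf4 occurred at shares near those of 1-gene intervals. The CRE letters TGACGTCA were present in 3.90% of windows in shared intervals with starts on opposite strands (31 of 795), 3.52% in 1-gene intervals and 2.33% of all windows. The CARE letters TGATGNAAN were present in 1.64% in shared intervals (13 windows), 2.16% in 1-gene intervals, 3.80% of all windows and 6.02% in no interval. Letters that hold a CpG, such as the CRE, and letters rich in A and T, such as the CARE and TATA box, can differ along with the base composition given above. The part of base composition in these differences was not tested. Presence was counted on both strands, and no factor's binding was measured.

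Shared intervals differed from 1-gene intervals in a few further ways. An end of a long non-coding RNA gene lay under 2.04% of shared intervals (31), 8.62% of 1-gene intervals (1119) and 1.79% of all autosomal intervals. The next interval on the chromosome began at a median distance of 1936 bp from a shared interval, 1570 bp from a 1-gene interval and 1917 bp from any. By chromosome, shared intervals numbered between 44.6 (chromosome 6) and 101 (chromosome 8) per 1000 protein-coding genes. The share of close pairs with a shared interval lay between 40.3% (chromosome 1) and 54.1% (chromosome 13) on all autosomes but chromosome 18, where the protocadherin gamma interval holds most pairs and the share was 75.1% (299 of 398). Without the pairs of that interval chromosome 18 had the lowest share of the autosomes, 18.9% (23 of 122). Pairs of other clustered protocadherins were not taken out. Of 57 such genes 35 had a close neighbour and 22 a shared interval, and their part in this low share was not tested.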

How the data were processed

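ATAC-seq was performed on 18 libraries in 4 groups, per the labels. The deposited file is 1 consensus interval list with start, end, name and score. The score deposited by the authors is 1000 for most intervals and was used for no ranking. Per the submitters' processing notes the tools were MultiQC, deepTools and MACS2 and the build mm10, and the interval names carry MSPC. Aligner, read shift, duplicate handling, thresholds and the samples behind each interval were looked for and not given in the sources used here. These steps could change widths and which neighbouring openings were merged into 1 interval. The list has no value for any library, which left no test over groups, so depth and precision are unknown.

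Gene ends were read from RefSeq, assembly GRCm38.p6 (49997 genes), with 365 genes not placed on a chromosome left out. Strand came from RefSeq promoter windows (250 bases before to 50 after the start), and 9841 windows at an outermost start were searched. Coordinates are 1-based. Results are descriptions without tests, since intervals and genes are not replicates. The members and lists were chosen with earlier results of these data known, and histone symbols were updated after the table was seen. Genes named are the 10 widest and 5 narrowest shared intervals, those of most genes, textbook pairs, up to 4 per list by width (fewer are printed for some, and some items are not reported here), and the widest by orientation, a group added after seeing the data. Position criteria were tested on simulated data (3000 intervals, 300 genes), with 0 wrongly called. Alternatives varied the distances, arms, gene sets and widths. Software versions were matplotlib 3.10.9, scipy 1.17.1, pandas 2.3.3, numpy 2.4.6 and Python 3.11.15.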

Additional observations from a re-analysis of the deposited data

Results flagged for a closer look

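Chromosome X lies outside the rule and was not part of the results above, and intervals that meet the same position criteria were present there. On it 36 of 3622 intervals met them, with a median width of 1099 bp, and 36 of 73 close pairs (49.3%) had a shared interval. The widest lay at Dnase1l1 with Taz, which remodels the mitochondrial lipid cardiolipin (2055 bp), and at Ndufa1, a subunit of complex I, with Rnf113a1 (1707 bp). The 47 intervals of chromosome Y held 0 that met the criteria.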

How the results depend on the processing

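The number of shared intervals was 2528 with a midpoint distance of 1000 bp and lay within 1.5 times the reported 1517 under all other alternatives. The median width was 1221 bp with 250 bp, 925.5 bp with 1000 bp, 1229 bp with overlap alone, 1098 bp with the midpoint alone and 1216 bp in intervals of at least 500 bp. In the same order, the percentage of close pairs sharing an interval was 45.1, 63.6, 44.4, 46.7 and 45.6, and it was 47.1 without nested or overlapping pairs and 45.9 without the interval of 24 genes, an alternative chosen after seeing the data. Starts on opposite strands made up 79.5% with 250 bp, 59.4% with 1000 bp, 81.1% with overlap alone and 78.0% in intervals of at least 500 bp. The share of all genes with a shared interval was 12.2%, 18.2%, 11.95%, 12.5% and 12.3% in the first order and 12.9% without nested pairs. The excess in median CpG of shared promoters was 15 over all windows and 5 over windows in 1-gene intervals. Lists for the mitochondrial ribosome, respiratory complexes, mitochondrial chaperones and import, tRNA synthetases, cytosolic ribosome, proteasome, repair and histones lay above all genes in 11 of 11 settings. The Atf4 targets, at 17.9% to 21.4% on 5 or 6 genes, did so too, and the neuronal genes in 10 of 11, at 0 of 22 with the midpoint alone and 22.7% with 1000 bp. The histone share was 64.5% with 1000 bp. The protocadherin share was 1.75% without the interval of 24 genes. No paired analysis was possible because the list carries no value per library. The causes of these shifts were not tested beyond the construction of each alternative. Gene strand was missing for some pairs, and read depth is unknown.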
